A study of Homo sapiens with 4 samples.

Results

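The mRNA levels of 10 genes of the unfolded protein response of the endoplasmic reticulum (ER) were examined in Huh7 hepatocellular carcinoma cells upon METTL16 KO. The members were chosen by name as ER chaperones and known targets of the transcription factors XBP1 and ATF6. They are HSPA5, HSP90B1, DNAJB9, SDF2L1, PDIA4, CRELD2, MANF, XBP1, HERPUD1 and SEL1L, and all 10 were found by symbol among the 18806 genes of the deposited table. A Huh7 Cas9 clone, grown from a single cell, was infected with lentivirus carrying either a non-targeting guide (sgNS, 2 libraries) or a guide against METTL16 (METTL16 KO, 2 libraries) and selected with hygromycin B. METTL16 is an RNA m6A methyltransferase. The sample labels describe the sgNS cells as wild type and the other group as METTL16 knockdown, and both groups share the Cas9 clone. The labels do not say whether both METTL16 KO libraries carry the same guide. The study's methods call the libraries of a group biological replicates, but the labels do not say whether they came from separate cultures, so that the p-values measure the spread between these libraries, which may be technical.

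The unfolded protein response is the programme by which a cell adjusts the folding capacity of its ER. Misfolded proteins are sensed by the membrane proteins IRE1 (encoded by ERN1), PERK (EIF2AK3) and ATF6. IRE1 splices XBP1 mRNA so that it encodes an active transcription factor, PERK phosphorylates eIF2α and favours translation of ATF4, and ATF6 is cleaved in the Golgi to release a transcription factor. XBP1 and ATF6 raise the mRNAs of ER chaperones and of the machinery for ER-associated degradation, by which misfolded proteins are moved to the cytosol and destroyed. Hepatocytes depend on it because they secrete large amounts of plasma protein.

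ATF6 and XBP1 act on target genes largely through the ER stress response element, which was searched for in the RefSeq promoters (GRCh38.p14) because the members were chosen as targets of these factors. Each promoter runs from 250 bases before to 50 bases after a RefSeq gene start, which can differ from the gene bounds given below from GENCODE. The first form of the element was read as CCAAT and CCACG separated by 9 bases, and the second form as ATTGG and CCACG separated by 1 base, both on either strand. All 10 members were matched to 12 promoters, and 6 members held 7 matches, which did not overlap each other. Among all 35116 promoters of this length, 0.131% held either form, 0.0769% the first and 0.0541% the second. The shorter motif TGACGTG, the core of the UPR element that XBP1 binds, was found in 0 promoters of the members and in 1.97% of all promoters. As the members were named for being XBP1 and ATF6 targets, the matches describe them and are no finding.

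The promoters of HSPA5 and HERPUD1, which rose, and of XBP1, which fell, are shown whole. They read 5′ to 3′ on the strand of the gene, with exact matches of the element in capitals. Copies that differ from it in any base were not searched for. The promoters lie at chr9:125241294-125241593 (minus strand), chr16:56931892-56932191 (plus strand) and chr22:28800520-28800819 (minus strand). HSPA5 and XBP1 hold the first form on the strand of the gene, at -66 to -48 and at -52 to -34 from the gene start, and HERPUD1 holds the second form at -117 to -107.
HSPA5: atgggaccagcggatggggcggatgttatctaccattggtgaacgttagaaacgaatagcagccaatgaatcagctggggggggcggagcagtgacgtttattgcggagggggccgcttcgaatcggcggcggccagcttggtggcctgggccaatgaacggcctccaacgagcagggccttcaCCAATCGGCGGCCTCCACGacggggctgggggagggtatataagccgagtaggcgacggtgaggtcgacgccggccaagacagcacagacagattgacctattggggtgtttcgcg
HERPUD1: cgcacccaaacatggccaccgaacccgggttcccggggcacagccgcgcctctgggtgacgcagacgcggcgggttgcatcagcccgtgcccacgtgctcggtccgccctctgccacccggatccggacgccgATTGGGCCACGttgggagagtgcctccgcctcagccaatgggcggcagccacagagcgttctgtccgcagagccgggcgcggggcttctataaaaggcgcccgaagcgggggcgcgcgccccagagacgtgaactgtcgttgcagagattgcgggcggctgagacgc
XBP1: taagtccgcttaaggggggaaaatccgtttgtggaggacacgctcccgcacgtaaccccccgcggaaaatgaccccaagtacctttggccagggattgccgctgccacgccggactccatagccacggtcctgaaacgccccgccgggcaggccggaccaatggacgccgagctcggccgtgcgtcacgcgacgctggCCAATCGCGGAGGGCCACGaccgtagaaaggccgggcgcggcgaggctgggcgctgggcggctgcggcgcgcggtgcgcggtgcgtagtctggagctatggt

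The matches of the other 3 members are shown with 20 flanking bases on each side, since SDF2L1 and CRELD2 rose while HSP90B1 did not pass the test. All 3 genes lie on the plus strand, and an element on the opposite strand reads as its reverse complement. HSP90B1 holds the first form on the strand of the gene (chr12:103930196-103930254) and again on the opposite strand (chr12:103930301-103930359), CRELD2 holds it on the opposite strand (chr22:49918534-49918592), and SDF2L1 holds the second form on the opposite strand (chr22:21642094-21642144).
HSP90B1, same strand: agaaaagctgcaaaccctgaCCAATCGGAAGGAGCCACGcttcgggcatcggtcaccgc
HSP90B1, opposite strand: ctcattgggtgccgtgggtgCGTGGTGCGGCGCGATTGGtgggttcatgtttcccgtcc
CRELD2: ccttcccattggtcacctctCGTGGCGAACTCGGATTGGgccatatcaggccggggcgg
SDF2L1: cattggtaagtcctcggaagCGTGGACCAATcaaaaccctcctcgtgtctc

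**Figure D1:**
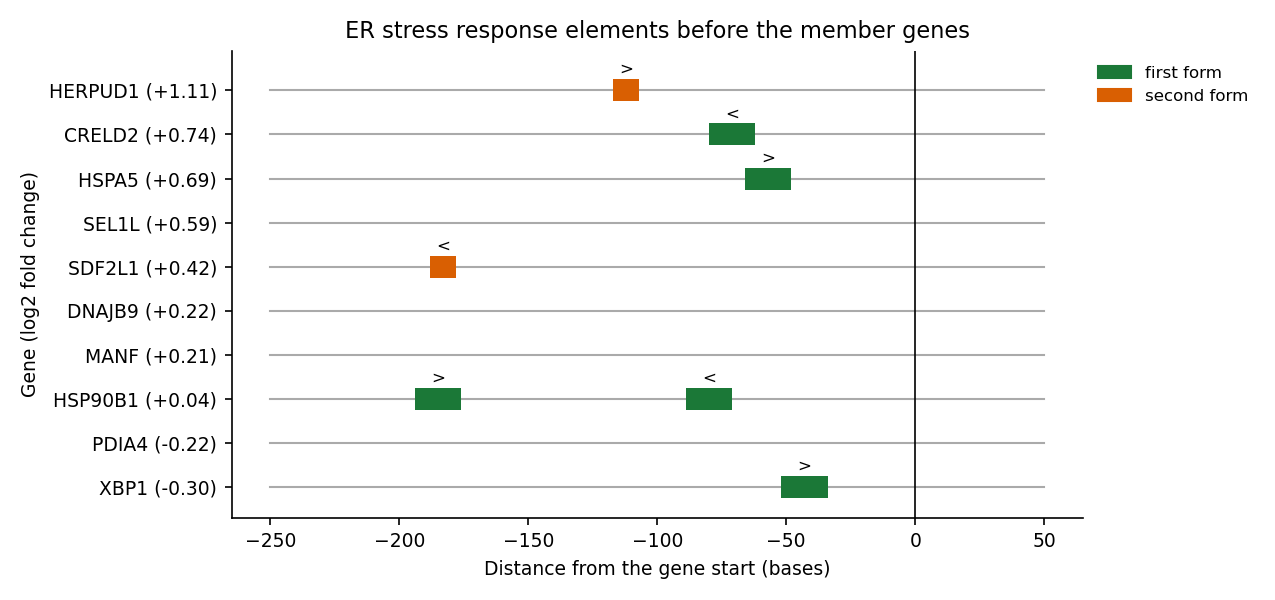
The x axis is the distance in bases from the gene start, the grey line is the promoter searched for each member, and boxes are matches of the ER stress response element (> on the strand of the gene, < on the opposite strand), with genes ordered by log2 fold change. Matches stand before genes that rose (HERPUD1, CRELD2, HSPA5, SDF2L1), before HSP90B1 and before XBP1, which fell; PDIA4 and XBP1 have a further promoter without a match that is not drawn.

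The table gives TPM, in which transcript numbers are corrected for gene length and scaled to a total of 1000000 per library, so levels of different genes can be compared. TPM keeps no read counts, and the depth of the libraries is unknown. METTL16 itself was listed at 26.3 and 25.1 TPM in the sgNS libraries against 17.6 and 18.8 TPM in the METTL16 KO libraries, which gave a log2 fold change of -0.50 (standard error 0.062, limma adjusted p = 2.4e-05). The liver character of the cells, though not their identity as Huh7, was checked with 10 liver genes. All of these were present, with HNF4A at 172 and 160 TPM in sgNS. Of 8 markers of blood, endothelial, connective tissue and glial cells, none exceeded 8.86 TPM (CD68), and DCN was listed at 0 in both sgNS libraries. Histone genes took 11.04% and 11.03% of the total in sgNS and 6.81% and 6.93% in METTL16 KO, and the median log2 fold change of the 11971 genes tested was 0.16. Changes are therefore also given after median-ratio scaling, which set that median to -0.0016, and after quantile normalization, which set it to 0.0097.

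Upon METTL16 KO the members did not move as a block. HERPUD1, CRELD2, HSPA5, SEL1L and SDF2L1 rose by 1.34-fold to 2.16-fold, DNAJB9 and MANF rose by a small amount close to that of the median gene, and XBP1 and PDIA4 fell. HSP90B1 did not pass the test. In bulk RNA, fewer cells that express a gene and less RNA per cell cannot be told apart. At an adjusted p under 0.05 (limma), 7 of the 10 members were higher and 2 were lower, whereas 50.1% of all genes tested were higher and 25.6% were lower. At the thresholds the study used for its plot of genes (unadjusted p under 0.01 and a log2 fold change of 1 or more in size), 1 member, HERPUD1, was higher and 0 were lower, against 7.69% and 3.75% of all genes. The METTL16 KO libraries did not overlap the sgNS libraries in any of the 10 members, as in 87.4% of all genes. After median-ratio scaling 5 members were higher and 3 lower (all genes, 36.4% and 36.5%), and after quantile normalization 6 were higher and 2 lower (all genes, 36.9% and 35.5%). The median log2 fold change of the members was 0.32 against 0.16 for all genes, and 0.16 against -0.0016 after median-ratio scaling.

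**Figure D2:**
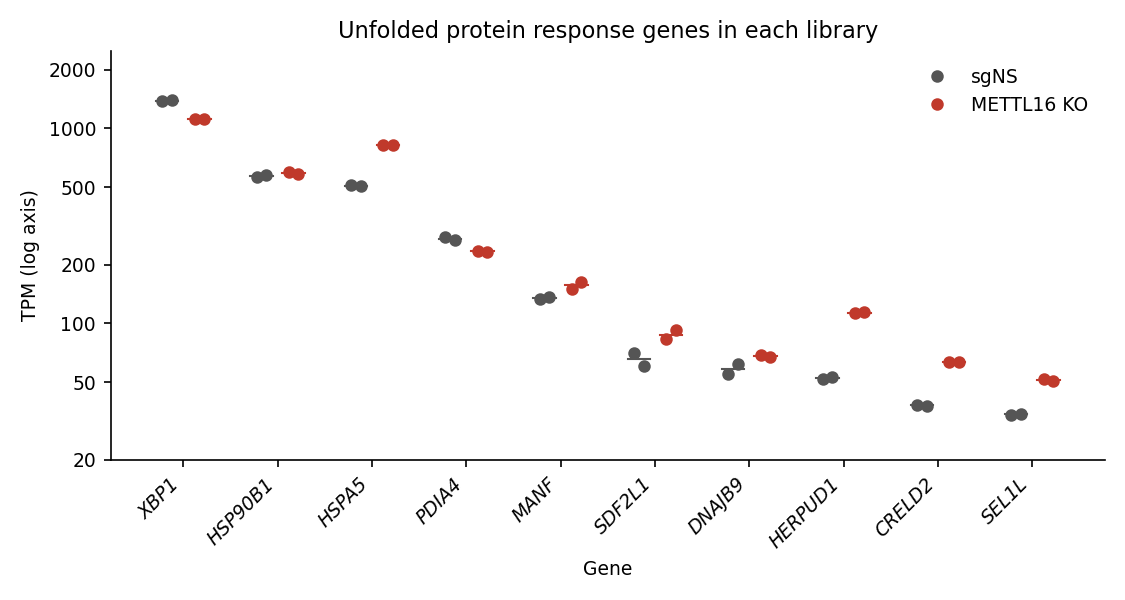
Each point is the TPM (log axis) of a member in 1 library, with 2 sgNS and 2 METTL16 KO libraries per gene and a short line at the group mean. The METTL16 KO points lie above the sgNS points in 8 genes, with the widest gap in HERPUD1, and below them in XBP1 and PDIA4.

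The members span the upper part of the transcriptome, from the 67.2 percentile of level among the genes tested (SEL1L) to the 99.1 percentile (XBP1). In sgNS their order by mean TPM was XBP1, HSP90B1, HSPA5, PDIA4, MANF, SDF2L1, DNAJB9, HERPUD1, CRELD2 and SEL1L. SDF2L1 and DNAJB9, which are neighbours in that order, overlapped in sgNS, as the lower SDF2L1 library (60.8 TPM) lay below the higher DNAJB9 library (61.7 TPM). DNAJB9 and HERPUD1, the next pair, lay closer together than the 2 DNAJB9 libraries, and the other neighbours were apart by more than their spread. In METTL16 KO, HSPA5 stood above HSP90B1 and HERPUD1 above SDF2L1 and DNAJB9, and the order was otherwise that of sgNS. The 10 genes together made up 0.312% of the total in both sgNS libraries and 0.331% in both METTL16 KO libraries, and their summed TPM gave a log2 ratio of 0.084 that was -0.081 after median-ratio scaling. The 2 libraries of a group differed by 0.072 (sgNS) and 0.054 (METTL16 KO) on the log2 scale in the median gene, and 8 of the 10 members differed by less in either group, with SDF2L1 as an exception in both. Without XBP1, the sum of the other 9 was 1737 ± 4.2 TPM in sgNS (SD, n = 2) and 2188 ± 1.2 TPM in METTL16 KO (SD, n = 2), and HSPA5 made up 69.6% of that gain.

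HSPA5 encodes BiP, the HSP70 chaperone of the ER lumen, which also holds the stress sensors inactive. The gene lies on chromosome 9 of GRCh38 from 125234853 to 125241382. It was listed at 513 and 505 TPM in the sgNS libraries against 824 and 821 TPM in the METTL16 KO libraries. Both METTL16 KO libraries lay far above the sgNS libraries, by 313 TPM on average, with SDs of 6.1 TPM in sgNS and 2.4 TPM in METTL16 KO (n = 2 each). The log2 fold change was 0.69 (standard error 0.028, limma adjusted p = 3.8e-09), and 15.1% of the genes tested rose more. It remained higher after median-ratio scaling, at 0.53, and after quantile normalization, at 0.65.

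HSP90B1, on chromosome 12, encodes GRP94, the HSP90 chaperone of the ER, which folds a narrower set of clients such as integrins and Toll-like receptors. It was listed at 566 and 578 TPM in the sgNS libraries against 596 and 584 TPM in the METTL16 KO libraries. The groups did not overlap, but the gap between them was smaller than the spread within each group. The log2 fold change was 0.045 (95% interval -0.020 to 0.11, limma adjusted p = 0.18). Its sign depended on the scaling, with -0.12 after median-ratio scaling (adjusted p = 0.0042) and -0.016 after quantile normalization (adjusted p = 0.60). The ratio of HSPA5 to HSP90B1, which no scaling by a single factor per library can change, went from 0.908 and 0.873 in the sgNS libraries to 1.38 and 1.41 in the METTL16 KO libraries.

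DNAJB9 and SDF2L1 encode co-factors of BiP. DNAJB9 (ERdj4, chromosome 7) is a J-domain protein that represses IRE1 through BiP, and SDF2L1 (chromosome 22) works with BiP and its J-domain partners to keep clients from aggregating. SDF2L1 was listed at 70.2 and 60.8 TPM in the sgNS libraries against 83.0 and 92.3 TPM in the METTL16 KO libraries. Relative to the level, this is the widest spread between libraries of a group among the members, and the groups still lay apart. Its log2 fold change was 0.42 (standard error 0.069, limma adjusted p = 2.1e-04), and 0.26 after median-ratio scaling. DNAJB9 was listed at 55.0 and 61.7 TPM in the sgNS libraries against 68.6 and 67.5 TPM in the METTL16 KO libraries, which gave a log2 fold change of 0.22 (standard error 0.056, limma adjusted p = 0.0037). That call was lost after median-ratio scaling (0.058, adjusted p = 0.38), after quantile normalization (0.099, adjusted p = 0.16) and without METTL16 KO replicate 1 (0.21, adjusted p = 0.060). The DNAJB9 change also varied with the sgNS library left out, at 0.14 without sgNS replicate 1 (adjusted p = 0.018) and at 0.31 without sgNS replicate 2 (adjusted p = 2.9e-04).

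PDIA4, also on chromosome 7, encodes ERp72, a protein disulfide isomerase that forms and rearranges disulfide bonds. It was listed at 278 and 267 TPM in the sgNS libraries against 236 and 233 TPM in the METTL16 KO libraries. PDIA4 fell by 0.22 on the log2 scale (standard error 0.034, limma adjusted p = 1.6e-04), by 13.9% of its mean in sgNS. It was also lower after median-ratio scaling, at -0.38, and after quantile normalization, at -0.27. The ratio of HSPA5 to PDIA4 rose from 1.85 and 1.89 in the sgNS libraries to 3.49 and 3.53 in the METTL16 KO libraries.

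CRELD2 and MANF encode small proteins that are retained in the ER and secreted upon stress. CRELD2 (chromosome 22) has EGF-like domains and binds unfolded clients, and MANF (chromosome 3) binds BiP and is known as a neurotrophic factor. CRELD2 was listed at 38.3 and 37.9 TPM in the sgNS libraries against 63.4 and 63.7 TPM in the METTL16 KO libraries. Its libraries agreed closely within each group, and its log2 fold change of 0.74 (standard error 0.045, limma adjusted p = 9.8e-08) was second among the members. MANF was listed at 134 and 136 TPM in the sgNS libraries against 151 and 163 TPM in the METTL16 KO libraries, which gave a log2 fold change of 0.21 (standard error 0.043, limma adjusted p = 8.8e-04). MANF moved little beyond the median gene, since it was at 0.047 after median-ratio scaling (adjusted p = 0.36) and at 0.14 after quantile normalization (adjusted p = 0.018).

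XBP1 (chromosome 22, from 28794555 to 28800597 of GRCh38) encodes the transcription factor of the IRE1 arm and was the most abundant member. It was listed at 1376 and 1391 TPM in the sgNS libraries against 1120 and 1121 TPM in the METTL16 KO libraries. The groups were far apart compared with their spread, and XBP1 fell by 0.30 on the log2 scale (standard error 0.025, limma adjusted p = 1.0e-06), or by 19.0% of its mean in sgNS. It was at -0.47 after median-ratio scaling and at -0.22 after quantile normalization. The values are per gene, and the spliced and unspliced forms of XBP1 mRNA are not analysed here. The ratio of HSPA5 to XBP1 rose from 0.373 and 0.363 in the sgNS libraries to 0.736 and 0.732 in the METTL16 KO libraries, and that of HERPUD1 to XBP1 from 0.0377 and 0.0383 to 0.1005 and 0.102.

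HERPUD1 and SEL1L take part in ER-associated degradation. HERPUD1 (chromosome 16) encodes a membrane protein with a ubiquitin-like domain that recruits components of the HRD1 complex, and SEL1L (chromosome 14) encodes the adaptor that binds and stabilises the ubiquitin ligase HRD1. HERPUD1 was listed at 51.9 and 53.2 TPM in the sgNS libraries against 112.5 and 114.4 TPM in the METTL16 KO libraries. The level thus rose 2.16-fold, with a log2 fold change of 1.11 (standard error 0.041, limma adjusted p = 2.2e-09), and 6.21% of the genes tested rose more. SEL1L was listed at 34.1 and 34.3 TPM in the sgNS libraries against 52.1 and 50.6 TPM in the METTL16 KO libraries. Its log2 fold change was 0.59 (standard error 0.048, limma adjusted p = 9.1e-07). After median-ratio scaling HERPUD1 was at 0.94 and SEL1L at 0.42, and after quantile normalization they were at 0.99 and 0.45.

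**Figure D3:**
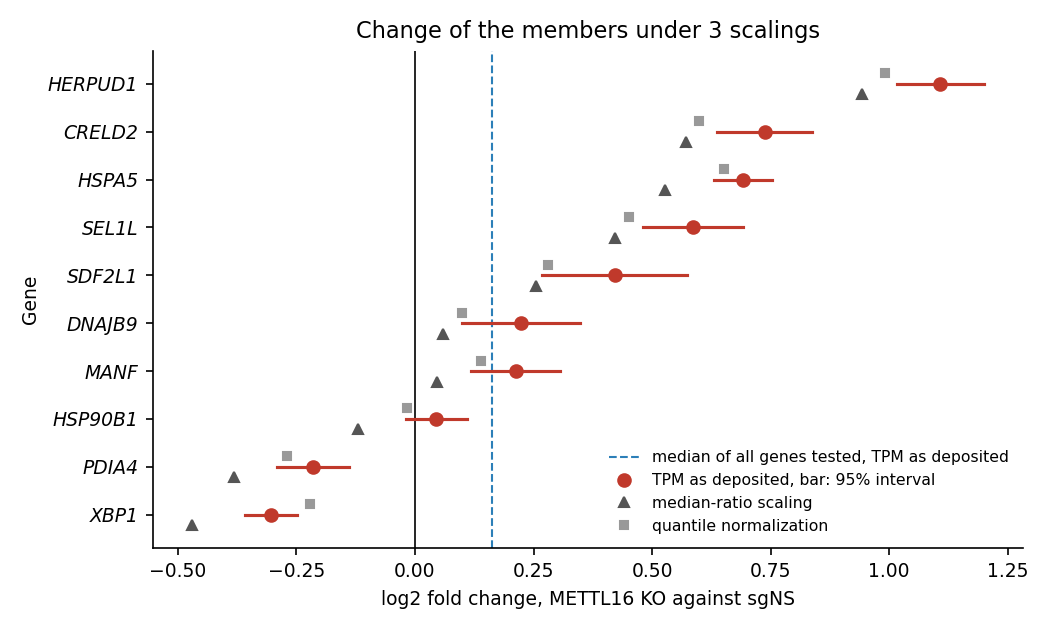
The x axis is the log2 fold change of METTL16 KO against sgNS, with red points and 95% intervals from limma for TPM as deposited, triangles for median-ratio scaling and squares for quantile normalization. HERPUD1, CRELD2, HSPA5, SEL1L and SDF2L1 lie above 0 and PDIA4 and XBP1 below 0 under all 3 scalings, while HSP90B1 changes sign.

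**Figure D4:**
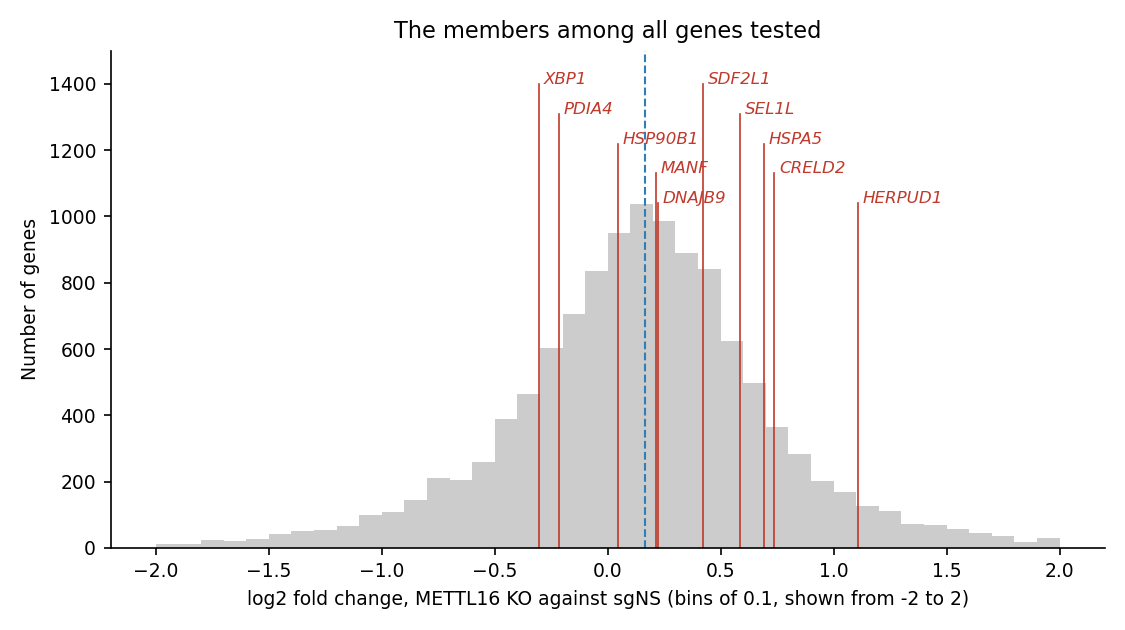
Grey bars count the 11971 genes tested by log2 fold change in bins of 0.1, shown from -2 to 2, the dashed line marks their median of 0.16, and red lines mark the members. DNAJB9 and MANF stand next to the median, HERPUD1 is in the upper tail and XBP1 and PDIA4 are in the lower part of the bulk.

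The other genes of the pathway were read from lists written from general knowledge. For the counts of these and the later lists, 50.1% of all genes tested were higher and 25.6% lower. These shares were 36.4% and 36.5% after median-ratio scaling, and 36.9% and 35.5% after quantile normalization. Among 15 genes of the sensors and their transcription factors, 5 were higher and 7 lower at a limma adjusted p under 0.05, and the median log2 fold change was -0.030. After median-ratio scaling, and likewise after quantile normalization, 5 were higher and 10 lower. ERN1, the gene of IRE1, went from 5.07 and 4.62 TPM to 9.32 and 9.07 TPM (log2 fold change 0.91, limma adjusted p = 5.9e-06), and ATF6 from 21.98 and 21.93 TPM to 28.7 and 27.2 TPM (0.34, adjusted p = 2.2e-04). Both rose, also after median-ratio scaling (0.75 and 0.18). EIF2AK3, the gene of PERK, was listed at 39.8 and 40.0 TPM against 36.2 and 36.2 TPM (log2 fold change -0.14, limma adjusted p = 0.021). Its call was lost without METTL16 KO replicate 1 (adjusted p = 0.11) and without METTL16 KO replicate 2 (adjusted p = 0.10), when 3 genes of this list in place of 7 were lower. In limma without trend, 4 were lower. CREB3, which encodes an ER-bound transcription factor, and NFYC, a subunit of the CCAAT-binding factor NF-Y, rose, with log2 fold changes of 0.80 and 0.73. ATF6B fell by 0.73, CREB3L1 fell by 0.27 and CREB3L2 fell by 0.19.

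Of 30 other ER chaperones and folding enzymes, 15 were higher and 12 lower, with a median log2 fold change of 0.069, and after median-ratio scaling 11 were higher and 14 lower. DNAJC3, which encodes the BiP co-chaperone P58IPK, rose from 16.115 ± 0.021 TPM to 27.1 ± 0.98 TPM (SD, n = 2 each) (log2 fold change 0.75, limma adjusted p = 7.7e-07). HYOU1, which encodes the ER chaperone GRP170 and nucleotide exchange factor of BiP, fell from 116 and 111 TPM to 87.7 and 86.8 TPM (-0.38, limma adjusted p = 8.1e-06). The oxidases ERO1B and QSOX1 rose, with log2 fold changes of 1.39 and 0.80, whereas ERO1A, which reoxidises protein disulfide isomerase, fell by 0.63. ERO1B was low, at 0.77 and 0.80 TPM in sgNS and 2.56 and 1.91 TPM in METTL16 KO. The size of its change depended on the processing, at 0.85 with a pseudocount of 1 and 0.95 after quantile normalization. P4HB, the gene of protein disulfide isomerase itself, fell by 0.79, from 765 and 733 TPM to 432 and 435 TPM, and the prolyl isomerase FKBP9 fell by 1.26.

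Of 24 other genes of ER-associated degradation tested, 12 were higher and 7 lower (4 lower without METTL16 KO replicate 1), with a median log2 fold change of 0.13, and after median-ratio scaling 8 were higher and 10 lower. DERL3, the remaining gene of the list, did not reach 0.15 TPM in any library and was not tested. SYVN1, which encodes the ligase HRD1 that SEL1L binds, rose from 41.6 and 41.1 TPM to 67.4 and 69.0 TPM (log2 fold change 0.72, limma adjusted p = 1.1e-07), and 0.55 after median-ratio scaling. OS9, a lectin that hands glycoproteins to SEL1L, rose from 133.9 and 127 TPM to 305 and 301 TPM (1.22, limma adjusted p = 5.1e-10). UFD1L, a co-factor of the extracting ATPase p97, rose by a log2 fold change of 0.54. ERLEC1, another lectin of the complex, fell by 0.32, the mannosidase-like EDEM1 fell by 0.31 and VCP, the gene of p97, fell by 0.26.

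Of 35 genes of the translocon and of vesicle export, 16 were higher and 15 lower, with a median log2 fold change of -0.021, and after median-ratio scaling 9 were higher and 19 lower. SEC61A1, the channel subunit of the translocon, rose with a log2 fold change of 0.54, the translocon-associated SSR4 with 0.53 and the signal peptidase subunit SEC11C with 0.72. SPCS3, another subunit of signal peptidase, fell by 1.26, the COPII coat gene SEC24C fell by 0.73 and the signal recognition particle receptor gene SRPRA fell by 0.67. Of 17 genes of the PERK and ATF4 arm, 10 (58.8%) were higher and 5 (29.4%) lower, against 50.1% and 25.6% of all genes. Under either scaling 8 were higher and 6 lower. DDIT3, which encodes CHOP, rose from 30.7 and 32.1 TPM to 72.7 and 77.8 TPM (log2 fold change 1.26, limma adjusted p = 4.7e-09). PPP1R15A, which encodes GADD34, and CHAC1 rose with 0.93 and 0.75, whereas XPOT fell by 1.87, CTH fell by 1.31 and NUPR1 fell by 0.92. ATF4 was listed at 613 and 602 TPM against 646 and 664 TPM, a log2 fold change of 0.11 (limma adjusted p = 0.0054) that was -0.056 after median-ratio scaling. ATF4 also lost its call after quantile normalization (adjusted p = 0.059), after histone genes were taken out of the total (0.19), in limma without trend (0.087) and without METTL16 KO replicate 2 (0.090).

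**Figure D5:**
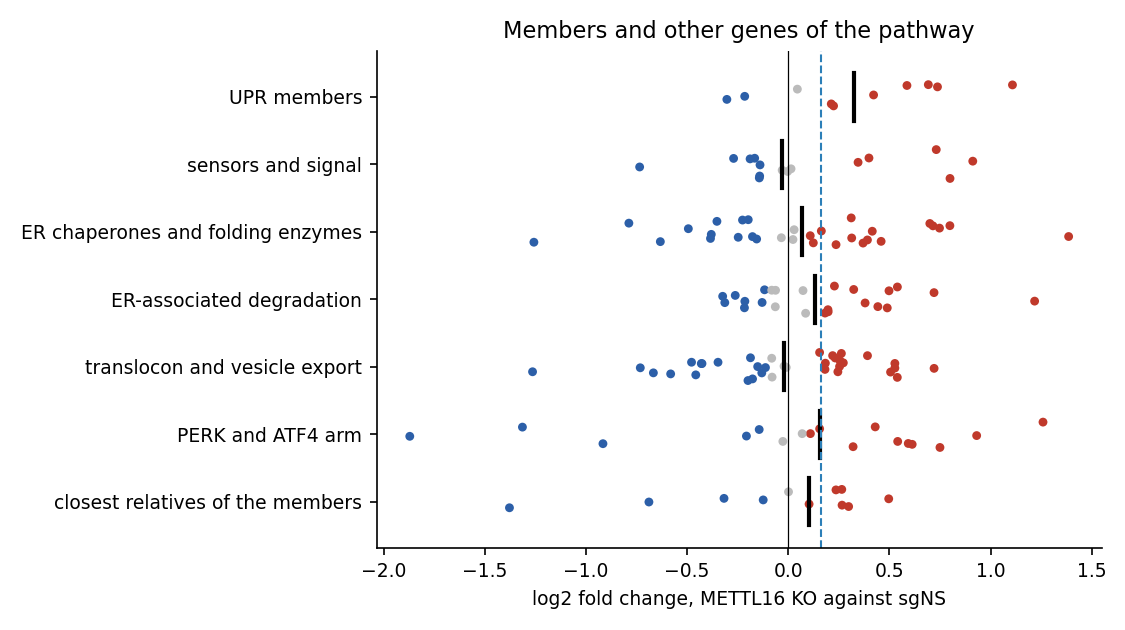
Each point is the log2 fold change of a gene tested, red where higher and blue where lower at an adjusted p under 0.05 and grey otherwise, with a black bar at the median of each list and a dashed line at the median of all genes. The member median of 0.32 lies right of the dashed line, while the medians of the other lists lie between -0.030 and 0.15 with genes on both sides of 0.

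The closest relatives of the members outside the ER stress programme were listed for comparison, and of 11 tested, 6 were higher and 4 lower, with a median log2 fold change of 0.10. HSPA8, the cytosolic relative of HSPA5, was listed at 1125 and 1146 TPM in the sgNS libraries against 1371 and 1360 TPM in the METTL16 KO libraries, which gave a log2 fold change of 0.27. The ratio of HSPA5 to HSPA8 rose from 0.456 and 0.440 to 0.601 and 0.604. CRELD1, the relative of CRELD2, moved the opposite way, from 17.9 and 19.1 TPM to 6.65 and 7.47 TPM, and fell by 1.38. The ratio of CRELD2 to CRELD1 thus went from 2.14 and 1.98 to 9.54 and 8.53. DNAJB1 and DNAJB6, cytosolic relatives of DNAJB9, rose with 0.50 and 0.30, SEL1L3 fell by 0.69 and TRAP1, the mitochondrial relative of HSP90B1, fell by 0.32. Counts after median-ratio scaling were 3 higher and 5 lower. SDF2 is not analysed here. After median-ratio scaling the medians of the 6 lists lay between -0.20 and -0.011, so that those of the chaperones, degradation genes, PERK and ATF4 arm and relatives changed sign. After quantile normalization the chaperone median alone changed sign, at -0.022.

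Liver genes moved beside the members. Of the 10 liver genes used as markers, 8 were higher and 2 lower, and under either scaling 7 were higher and 2 lower. Their summed level rose from 18671 and 18753 TPM in the sgNS libraries to 32424 and 31971 TPM in the METTL16 KO libraries. Most of that gain was AFP, at 1737 and 1793 TPM in the sgNS libraries against 10386 and 10197 TPM in the METTL16 KO libraries, while APOB and TF were lower. The 8 markers of other cells summed to 9.60 and 8.58 TPM in sgNS and to 14.8 and 13.4 TPM in METTL16 KO. Of the 2 that were tested, CD68 rose from 3.4 and 2.72 TPM to 8.86 and 8.57 TPM (log2 fold change 1.49). PECAM1 fell from 5.14 and 4.74 TPM to 3.09 and 2.7 TPM (-0.75). The part of the liver genes or of these markers in the levels of the members was not tested.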

How the data were processed

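RNA-seq of 4 Huh7 libraries (2 sgNS, 2 METTL16 KO) was analysed from 1 table of TPM values per gene symbol, deposited by the authors with 2 decimals. Per the study's methods, reads were trimmed with Cutadapt, mapped to GRCh38 with STAR and quantified with RSEM, versions not given in the sources used here. The methods name RPKM, but every library sums to 1000000. The labels name both ribosomal RNA depletion and an mRNA kit.

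For genes with a mean of at least 1 TPM (11971), log2(TPM + 0.1) was tested with limma 3.58.1 (R 4.3.3; lmFit, eBayes with a mean-variance trend), two-sided, with Benjamini-Hochberg adjustment over all genes. Fold changes on this scale understate changes of low genes. With 2 libraries against 2, an exact permutation test of a single gene cannot go below p = 0.33. Positions are those of GENCODE 44 and promoters those of RefSeq, both on GRCh38, and were handled with Python 3.11.15.

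The members and lists were chosen with earlier results of these data known. All members were named, and of each list the 3 largest rises and falls that passed with groups apart, plus direct partners of members. Alternatives were other pseudocounts, filters and scalings, a replicate block, limma without trend and each library left out.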

Additional observations from a re-analysis of the deposited data

How the results depend on the processing

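HERPUD1, CRELD2, HSPA5, SEL1L, SDF2L1, XBP1 and PDIA4 kept their direction and passed an adjusted p of 0.05 in limma under each of the 13 alternatives, and METTL16 did so too. The median log2 fold change of the members, 0.32, was 0.16 under median-ratio scaling and 0.21 under quantile normalization, and under both 0 members in place of 1 passed the unadjusted p of 0.01 and the fold threshold, as HERPUD1 came to lie at 0.94 and 0.99. HSP90B1 was at -0.12 with median-ratio scaling, -0.016 with quantile normalization and -0.021 after histone genes were taken out of the total. ATF4 was at -0.056 and the log2 ratio of the summed TPM of the members at -0.081 with median-ratio scaling. The scalings set the median gene near 0, and other causes were not tested.

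EIF2AK3 lost its call without METTL16 KO replicate 1 or replicate 2 and under no other alternative. Of all genes called at an adjusted p under 0.05, 66.2% were higher on TPM as deposited, 49.9% after scaling by median ratios and 51.0% after quantile normalization, and of those past the fold threshold 67.2%, 50.6% and 45.7%. The 920 higher and 449 lower genes past the fold threshold became 582 and 692 with quantile normalization, and the higher genes 1390 without a filter and 575 at a minimum mean of 5 TPM. With a replicate block, 6048 genes were higher and 3112 lower, and 7 members were higher and 2 lower as without it. That fit left 1 residual degree of freedom per gene, so its p-values rest mostly on the spread that limma pools over genes. The deviations of libraries with the same number had a correlation of -0.044, so that they share only a number. Leaving out each library in turn gave a member median of 0.29 to 0.38 and 6 to 7 higher members, the loss being DNAJB9. Where a library was left out, the lone library of its group was assumed to vary like the other group. The lack of read counts limits what can be said of genes near 0 TPM.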

Other observations

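The KDEL receptors, which return escaped ER chaperones from the Golgi, were looked at after the values of their list had been seen. All 3 were lower in METTL16 KO. KDELR1 was listed at 695 and 689 TPM in the sgNS libraries against 516 and 514 TPM in the METTL16 KO libraries, KDELR2 at 651 and 703 TPM against 524 and 539 TPM, and KDELR3 at 161 and 175 TPM against 118 and 122 TPM. They fell by 0.43, fell by 0.35 and fell by 0.48 on the log2 scale, with limma adjusted p-values of 1.6e-07, 8.5e-06 and 2.6e-06, and were lower still after median-ratio scaling.

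Outside the members, 24 tested genes have a RefSeq promoter with an exact ER stress response element of either form. Of these, 11 (45.8%) were higher and 4 (16.7%) lower at a limma adjusted p under 0.05, against 50.1% and 25.6% of all genes, and the median log2 fold change was 0.14 against 0.16 for all genes. CANX, the gene of the lectin chaperone calnexin, was listed at 385 and 397 TPM in the sgNS libraries against 520 and 505 TPM in the METTL16 KO libraries, which gave a log2 fold change of 0.39. FICD, the gene of the enzyme that AMPylates BiP, had a log2 fold change of 0.64 (limma adjusted p = 0.0034), and 0.47 after median-ratio scaling. Its sgNS libraries lay far apart, at 6.82 and 4.55 TPM, against 8.2 and 9.26 TPM in METTL16 KO, so the size of its rise is uncertain. The calcium-binding Golgi protein gene NUCB1 fell by 0.48. These 3 genes were picked after their values were seen.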
